A study of Rattus norvegicus with 12 samples.

Results

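Interferon-stimulated genes are genes that cells transcribe when interferons bind their receptors. A set of 36 of them, listed by symbol, was followed gene by gene through 12 RNA-seq libraries of cultured rat Müller cells, the main glia of the retina. The count files held 31 of the 36 among their 17315 genes. Of the 31, 29 passed edgeR's filter on low counts and were tested together with 11321 genes in all. Counts of Samd9l, Herc6, Parp12, Ifi44l and Xaf1 are not analysed here. The set was chosen as one that is lower in the SIRMu-1 line and higher in the rMC-1 line as a group, so the counts and medians over its members describe that choice and give no separate evidence for it. What follows is the part that the choice does not fix, which is how each gene behaved, where members departed from the group and what moved beside them.

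The 4 primary libraries came from Müller cells of Sprague-Dawley pups at postnatal day 2 to 4, grown to passage 4 (replicates 1 and 2) or passage 3 (replicates 3 and 4). SIRMu-1 is a single line that arose spontaneously from pup Müller cells of the same age, and its 5 libraries were made at passage 6 (replicate 1), 11 (replicates 2, 3 and 4) and 20 (replicate 5). The rMC-1 line comes from adult rats, carries the SV40 large T antigen, and gave 3 libraries at passage 23 (replicate 1) or 26 (replicates 2 and 3). Serum was 20% in the first 2 kinds of culture and 10% for rMC-1, and all media had 25 mM glucose and 2 mM glutamine. Gentamicin at 87 mg/L and amphotericin B at 2.2 mg/L were in every primary culture, in SIRMu-1 replicates 3 and 5, and in no rMC-1 culture. No culture was labelled as treated with an interferon. Line, donor age, passage, serum and drugs differ together between the groups, and their parts cannot be told apart. Each line is 1 line, so the spread within it is that between its cultures and the tests do not reach other lines. Which cultures came from the same animal is not labelled. Libraries that carry the same code in their file names (primary 1 and 2, rMC-1 1 and 2, SIRMu-1 1 to 3, SIRMu-1 4 and 5) may not be independent, and the p-values would then be too small.

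Counts in genes were 22582345 to 38125630 per library. Of 10 Müller glia markers, Aqp4 had 2 counts in the primary libraries and 0 in both lines, and Kcnj10 had 13, 0 and 9 counts in primary, SIRMu-1 and rMC-1 libraries. Sox9 was at 37.2 to 83.8 CPM in primary cultures and reached 107 CPM in SIRMu-1 but had 4 counts in all of rMC-1, and Sox2 was at 0 in SIRMu-1 and at 11.9 to 18.0 CPM in rMC-1. Vim was at a mean of 6207, 3540 and 1367 CPM in primary, SIRMu-1 and rMC-1 libraries. Means in the same order were 143, 56.8 and 54.8 CPM for Glul, and 34.2, 23.0 and 55.3 CPM for Slc1a3. For Apoe they were 224, 2.61 and 5.75 CPM. Car2 had 725 counts in primary libraries and 0 in both lines, and Rlbp1 had 6, 22 and 109 counts. The label Müller cell thus rests on part of its markers in each group. In bulk RNA, fewer cells that express a gene and less of its RNA per cell cannot be told apart. CPM are counts of a gene scaled to a common library size after TMM scaling, and they are not divided by gene length, so levels are compared between libraries and not between genes.

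Type I interferons bind a receptor made of IFNAR1 and IFNAR2, which activates the kinases JAK1 and TYK2. These phosphorylate STAT factors, STAT2 among them, which join IRF9 in a complex that binds the interferon-stimulated response element (ISRE) of target promoters. Interferon gamma acts through IFNGR1, IFNGR2, JAK1 and JAK2 on factors that bind the gamma-activated site (GAS). In the retina, Müller glia are among the cells known to respond to interferons and to take part in inflammation. Many target genes are also transcribed at a low level without added interferon.

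Promoter sequences of the members are shown first, because the ISRE is the element that the complex with IRF9 binds. RefSeq windows on assembly GRCr8, from 250 bases before to 50 bases after a gene's start, were matched by symbol for 28 of the 36 members, Herc6, Parp12, Ifi44l and Xaf1 among them. The ISRE was searched as GAAANNGAAA and the GAS as TTCNNNGAA, on both strands, and overlapping matches were counted as 1 gene. An ISRE match stood in 17 of the 28 (60.7%), against 4.12% of all 27457 genes with a window, and a GAS match in 6 of the 28 (21.4%), against 9.39% of those genes. The assembly is not the one the counts were made on, so the windows are tied to the counts by gene name alone. The first stretches belong to members that differed strongly between the lines, with the ISRE match in capitals, on the strand of the gene and 5′ to 3′:
Rsad2 at chr6:48788248-48788277, minus strand: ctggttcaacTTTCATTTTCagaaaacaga
Gbp2 at chr2:234005686-234005715, plus strand: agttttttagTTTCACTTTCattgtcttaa
Gbp5 at chr2:233910933-233910962, plus strand: acttgtgtagTTTCAATTTCagtttagagg
Ifit3 at chr1:241527272-241527301, plus strand: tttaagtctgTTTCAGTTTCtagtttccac

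The next stretches belong to members for which no comparison between the groups was called, again with the ISRE match in capitals:
Isg20 at chr1:142239957-142239986, plus strand: taatgaaccaGAAACTGAAActaaaacggc
Trim21 at chr1:166399372-166399399, minus strand: cctctgagagGAAACTGAAAGTGAAAtt
A match is a match of letters and was not tested as a binding site. Both sets were picked among members that hold it. Oasl and Cmpk2, which were called in every comparison, have windows without an ISRE match. The 250 bases before the starts of Bst2 and Eif2ak2 hold a match too. Bst2 was at 61.7 CPM or more in rMC-1 and near 0 in SIRMu-1, and the groups of Eif2ak2 overlapped in every comparison. Bst2 and Trim21 each hold a pair of overlapping matches. Irf1, which has no ISRE match in its window, is shown with its GAS match in capitals:
Bst2 at chr16:18254968-18255217, minus strand: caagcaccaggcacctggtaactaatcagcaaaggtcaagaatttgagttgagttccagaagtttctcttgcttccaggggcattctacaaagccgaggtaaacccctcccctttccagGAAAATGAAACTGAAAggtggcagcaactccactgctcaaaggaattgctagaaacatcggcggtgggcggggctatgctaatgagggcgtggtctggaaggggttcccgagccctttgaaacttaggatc
Eif2ak2 at chr6:21940904-21941153, plus strand: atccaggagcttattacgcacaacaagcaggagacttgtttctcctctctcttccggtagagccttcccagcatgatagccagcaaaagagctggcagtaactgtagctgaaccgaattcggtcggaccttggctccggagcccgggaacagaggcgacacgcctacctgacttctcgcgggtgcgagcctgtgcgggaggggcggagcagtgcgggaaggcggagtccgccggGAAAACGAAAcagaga
Irf1 at chr10:38417685-38417934, plus strand: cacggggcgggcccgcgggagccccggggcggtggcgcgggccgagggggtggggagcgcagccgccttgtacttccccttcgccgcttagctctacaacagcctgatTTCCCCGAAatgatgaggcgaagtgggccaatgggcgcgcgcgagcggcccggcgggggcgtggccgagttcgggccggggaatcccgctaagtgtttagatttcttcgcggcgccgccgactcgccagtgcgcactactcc

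Among the 22 tested members with a window, an ISRE match did not go with one outcome. In SIRMu-1 against primary cultures, 9 of the 13 members with a match and 5 of the 9 without one were called lower, with median log2 fold changes of -1.70 and -0.79. In rMC-1 against primary cultures, 4 of 13 with a match and 5 of 9 without one were called higher, with medians of 0.38 and 1.07. Of all tested genes, 24.4% were called lower in the first comparison and 31.9% higher in the second. Ifit1, Ifit2, Mx2, Adar, Rtp4, Isg15 and Usp18 were tested but had no window, so the split leaves them out. These counts are a description of few genes, and the difference between the sets was not tested.

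Over the tested members, 19 of 29 were called lower in SIRMu-1 than in primary cultures and 0 higher, at an edgeR adjusted p under 0.05 over all tested genes. Of all 11321 genes, 24.4% were called lower and 21.7% higher in that comparison. The median log2 fold change of the members was -1.43, and that of all genes was -0.016. For 16 members every SIRMu-1 library lay below every primary library and for 0 above, against 18.1% and 17.2% of all genes. In rMC-1 against primary cultures, 13 of 29 were called higher and 1 lower, where 31.9% and 38.9% of all genes were, and the medians were 0.87 for the members and -0.15 for all genes. For 15 members every rMC-1 library lay above every primary library and for 1 below, against 32.7% and 38.2% of all genes. Between the lines, 23 of 29 were called higher in rMC-1 and 0 lower, where 30.5% and 32.7% of all genes were, with medians of 2.21 and -0.030. For 24 members every rMC-1 library lay above every SIRMu-1 library and for 0 below, against 31% and 32% of all genes. Both comparisons with primary cultures use the same 4 primary libraries.

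Counts over the members that passed the filter carry a limit of their own. Ifit1, Oasl and Rtp4 passed through their rMC-1 libraries alone, and 10 tested members had no SIRMu-1 library above the filter's cutoff of 0.349 CPM, so a gene of that kind could hardly have been tested without differing. Only 17 members lay above the cutoff in all 12 libraries. TMM factors were 1.255 to 1.284 in rMC-1 and 0.839 to 1.006 elsewhere, which matters for direction. With library totals in place of TMM, the median of all genes moved by 0.47 in rMC-1 against primary cultures and the share of calls that were higher was 61.9% in place of 45.1%. Between the lines it moved by 0.43 and the share was 69.2% in place of 48.3%. The members' median stood 1.02 and 2.24 above that of all genes with either scaling. With library totals 18 members passed as higher in rMC-1 against primary cultures, with Sp100, Eif2ak2, Trim21, Parp9 and Ifi44 added to the 13, and the uncalled values of Stat2, Irf9, Mx2, Isg20 and Ifi27 turned from below to above 0. The counts in SIRMu-1 against primary cultures were 19 lower and 0 higher with either scaling.

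**Figure D1:**
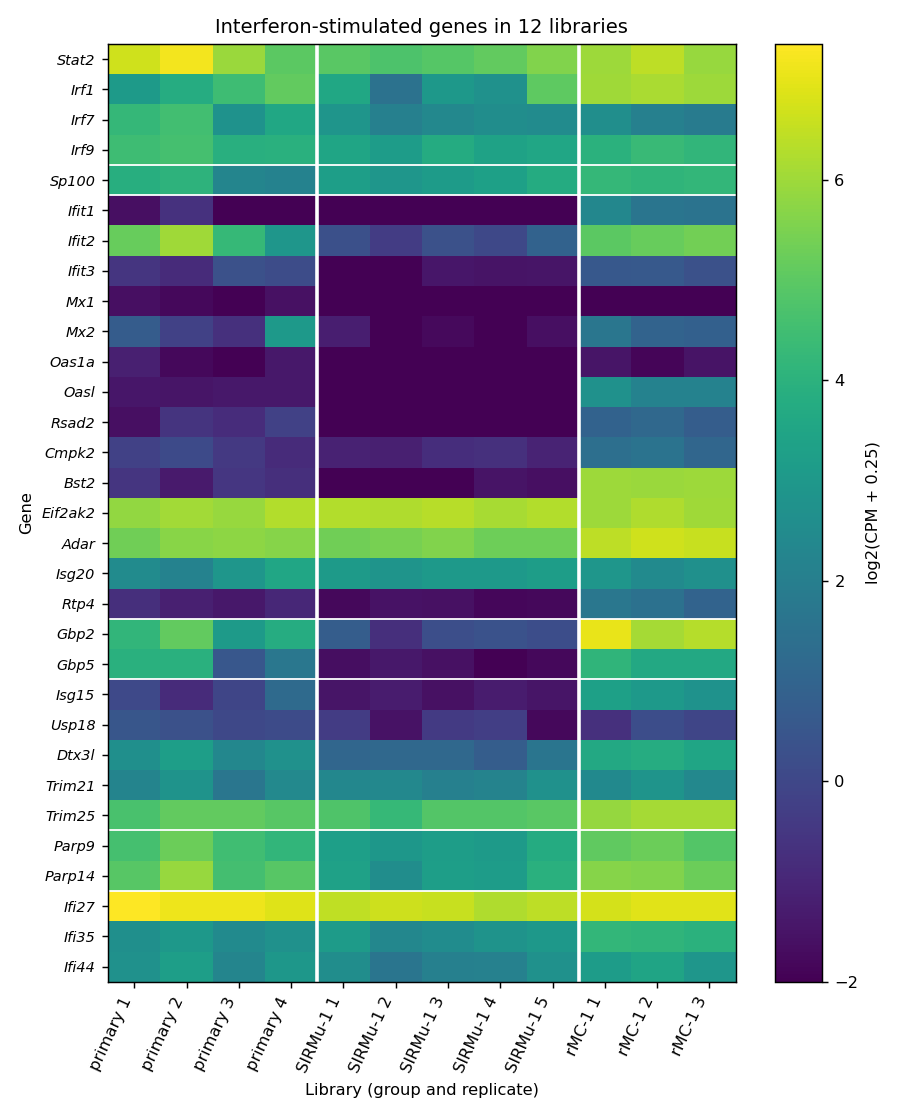
Levels of the 31 members held by the count files, as log2(CPM + 0.25), with genes in rows grouped by role and the 12 libraries in columns grouped by culture; white lines part the groups. Ifit1, Mx1, Oas1a, Oasl and Rsad2 have no count in any SIRMu-1 library, while Eif2ak2, Trim21 and Isg20 have similar colours in all 3 groups.

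**Figure D2:**
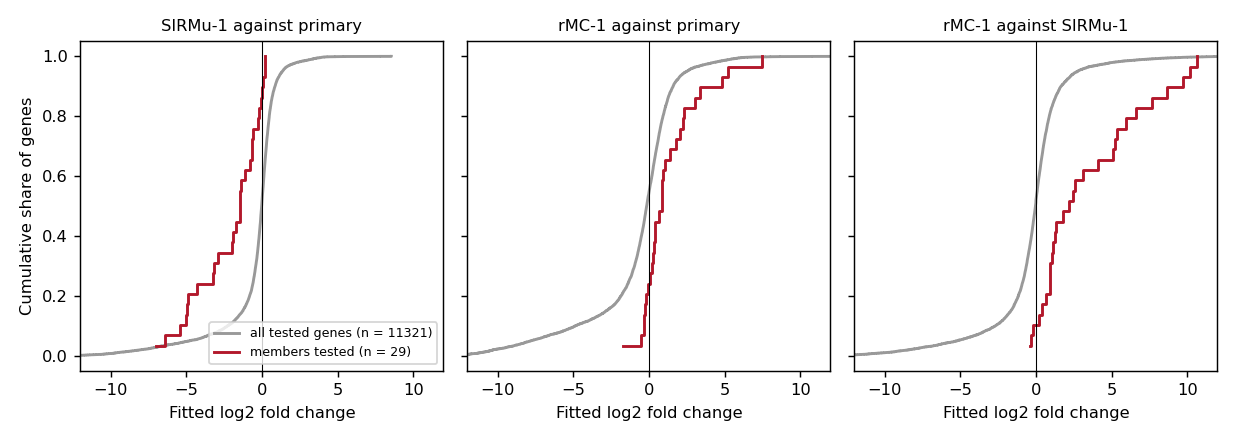
Cumulative share of genes against the fitted log2 fold change in each of the 3 comparisons, for all 11321 tested genes (grey) and for the 29 tested members (red). The members' curve lies left of the other in SIRMu-1 against primary cultures (median -1.43) and right of it in rMC-1 against SIRMu-1 (median 2.21).

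Among the DNA-binding factors, 3 of 4 were called lower in SIRMu-1 than in primary cultures, while in rMC-1 1 was higher and 1 lower. Of all tested genes, 24.4% were called lower in SIRMu-1, and 31.9% higher and 38.9% lower in rMC-1. Stat2, a subunit of the ISRE-binding complex, was at 103, 146, 61.8 and 31.6 CPM in primary replicates 1 to 4, at 30.8, 26.2, 29.7, 33.9 and 47.6 CPM in SIRMu-1, and at 63.8, 85.6 and 60.2 CPM in rMC-1. The primary libraries thus spread more widely than either line, and replicate 4 lay among the SIRMu-1 values. Stat2 was called lower in SIRMu-1 (log2 fold change -1.35 ± 0.35 SE, edgeR adjusted p = 0.00857) and not called in rMC-1 against primary cultures (-0.29 ± 0.40). The first call was lost without both primary libraries of passage 4 (-0.47, edgeR adjusted p = 0.221), with the code-sharing libraries (those whose file names carry 1 code) summed (-1.07, edgeR adjusted p = 0.193) and with the SIRMu-1 libraries matched to the primary cultures in drugs (-1.15, edgeR adjusted p = 0.093). Between the lines Stat2 was 1.06 ± 0.38 higher in rMC-1 (edgeR adjusted p = 0.0277), a call lost with code-sharing libraries summed (1.07, edgeR adjusted p = 0.183), without rMC-1 replicate 2 (0.98, edgeR adjusted p = 0.0808) and without SIRMu-1 replicate 1, 2 or 3 in turn (0.98 to 1.02, edgeR adjusted p 0.0529 to 0.0558).

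Irf9 encodes the DNA-binding subunit of the same complex. Its primary values were 21.4, 23.7, 14.9 and 15.2 CPM, its SIRMu-1 values 10.9, 8.69, 13.3, 10.2 and 11.3 CPM, and its rMC-1 values 15.3, 19.8 and 17.8 CPM. All SIRMu-1 libraries lay below all others, by a fitted log2 change of -0.79 ± 0.18 against primary cultures (edgeR adjusted p = 0.0035), and rMC-1 overlapped the primary cultures (-0.09 ± 0.20). Without the passage 4 primaries the SIRMu-1 value was -0.47 and not called (edgeR adjusted p = 0.0641). The call of Irf9 was also lost with code-sharing libraries summed (-0.70, edgeR adjusted p = 0.0621) and with drug-matched SIRMu-1 libraries (-0.61, edgeR adjusted p = 0.0584).

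Irf7, the factor that amplifies type I interferon production, was the 1 member called lower in both lines. Primary libraries had 18.7, 22.4, 6.48 and 11.6 CPM, SIRMu-1 libraries 7.18, 4.00, 4.95, 5.73 and 5.43 CPM, and rMC-1 libraries 5.95, 3.98 and 3.45 CPM. Both lines thus lay near the low end of the primary range, and rMC-1 wholly below it. The log2 fold changes were -1.44 ± 0.33 in SIRMu-1 (edgeR adjusted p = 0.00401) and -1.73 ± 0.39 in rMC-1 (edgeR adjusted p = 0.00188), and the lines did not differ beyond their spread (-0.29 ± 0.36, edgeR adjusted p = 0.502). Without both passage 4 primaries these were -0.73 (not called) and -1.03 (called, edgeR adjusted p = 0.0244), and with code-sharing libraries summed the SIRMu-1 value of Irf7 was -1.23 and not called (edgeR adjusted p = 0.108). Irf7 holds an ISRE match in its window, as 17 members do, and it went the other way from the group in rMC-1.

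Irf1, a factor induced mainly through the GAS, showed another order. It was at 8.36, 13.4, 21.9 and 34.3 CPM in primary cultures, at 11.7, 2.64, 7.68, 6.45 and 32.9 CPM in SIRMu-1 and at 64.5, 71.7 and 63.3 CPM in rMC-1. All rMC-1 libraries lay above all others, by a fitted log2 change of 1.77 ± 0.68 against primary cultures (edgeR adjusted p = 0.0343) and of 2.44 ± 0.64 against SIRMu-1 (edgeR adjusted p = 0.00571). The first of these calls was lost when any 1 of primary replicates 1, 2 and 3 or any 1 rMC-1 library was left out (log2 fold changes 1.51 to 1.89), and without both passage 4 primaries (1.24, edgeR adjusted p = 0.204). SIRMu-1 against primary cultures was not called (-0.67 ± 0.60), but without SIRMu-1 replicate 5, the culture of passage 20, it was -1.47 and called (edgeR adjusted p = 0.0254). Without that library the value between the lines was 3.31, and with drug-matched SIRMu-1 libraries it was 3.27.

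Sp100, a nuclear body protein gene, was at 14.2, 16.1, 4.56 and 4.14 CPM in primary cultures, at 9.21, 7.21, 8.55, 9.78 and 13.2 CPM in SIRMu-1 and at 18.3, 17.3 and 18.1 CPM in rMC-1. The SIRMu-1 values fell in the gap between the passage 4 and the passage 3 primaries, and all rMC-1 values lay above both groups. No comparison was called (edgeR adjusted p = 0.96 in SIRMu-1, 0.0826 in rMC-1 and 0.0673 between the lines). Between the lines, Sp100 was called higher in rMC-1 with DESeq2 (0.93, DESeq2 adjusted p = 0.0447) and with library totals (1.34, edgeR adjusted p = 0.0118). The same held with only the 2 lines fitted (0.90, edgeR adjusted p = 0.00222) and without primary replicate 2, 3 or 4 or SIRMu-1 replicate 5. Against primary cultures it was called higher in rMC-1 without primary replicate 1 or 2 (1.10 and 1.22). Against the passage 3 primaries alone, Sp100 was higher in SIRMu-1 by 1.14 (edgeR adjusted p = 0.00488) and in rMC-1 by 2.04 (edgeR adjusted p = 1e-04).

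The genes that carry the interferon signal were taken from a list of 29, of which 23 were in the files and 17 tested. Of the 17, 6 were called lower and 1 higher in SIRMu-1, and 6 lower and 5 higher in rMC-1, each against primary cultures, with median log2 fold changes of -0.51 and 0.18. In SIRMu-1 that is 35.3% lower and 5.88% higher, beside 24.4% and 21.7% of all tested genes. In rMC-1 it is 35.3% lower and 29.4% higher, close to the 38.9% and 31.9% of all tested genes. The interferon genes in the files, Ifnb1, Ifna1, Ifna2, Ifna4, Ifnk and Ifng, had no count in any of the 12 libraries. The mRNA of these 6 genes was not detectable at this depth.

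Of the 5 receptor chains tested, 3 were lower in both lines. Ifnar1, a chain of the type I receptor, was at 118, 148, 128 and 119 CPM in primary cultures, at 79.9 to 101 CPM in SIRMu-1 (median 85.4) and at 61.2, 78.0 and 62.6 CPM in rMC-1. The 3 groups did not overlap, and the log2 fold changes were -0.56 ± 0.11 in SIRMu-1 (edgeR adjusted p = 0.00168) and -0.93 ± 0.13 in rMC-1 (edgeR adjusted p = 5.3e-05). Ifngr1, a chain of the interferon gamma receptor, fell by 0.57 ± 0.10 and by 0.87 ± 0.11 on the log2 scale, both called. Il10rb, a chain shared by the type III receptor, fell by 0.63 ± 0.18 and by 1.20 ± 0.21, both called. Ifnlr1, the other chain of the type III receptor, was lower in SIRMu-1 alone (-1.13 ± 0.25), and Ifngr2 was higher in SIRMu-1 (0.47 ± 0.17) and not called in rMC-1. In rMC-1, no receptor chain was called higher than in primary cultures while 13 members were. With library totals the 3 chains were still called lower in rMC-1 (-0.39 to -0.73) and Ifnlr1 was called higher (0.67), and over the 17 genes 9 were higher and 6 lower. The step of Ifnar1 between the lines (-0.37 ± 0.12) was 0.08 with library totals and not called.

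The kinases did not move as a block. Jak2, which serves the interferon gamma receptor and many cytokine receptors, was at 77.5, 91.3, 52.9 and 47.8 CPM in primary cultures, at 24.5 to 48.3 CPM in SIRMu-1 (median 32.4) and at 161, 182 and 170 CPM in rMC-1. That is the pattern of the group, with log2 fold changes of -0.99 ± 0.22 in SIRMu-1 (edgeR adjusted p = 0.00313) and 1.34 ± 0.24 in rMC-1 (edgeR adjusted p = 0.000414). Tyk2, of the type I receptor, was higher in rMC-1 by 0.55 ± 0.14 (edgeR adjusted p = 0.00338) and not called in SIRMu-1. Jak1 was lower in rMC-1 by a fitted log2 change of -0.91 ± 0.15 (edgeR adjusted p = 0.000199). Socs3, an inhibitor of JAK signalling that cytokines induce, was higher in rMC-1 by 1.81 ± 0.45 (edgeR adjusted p = 0.00342). The other listed inhibitors differed in this. Against primary cultures, Ptpn2 was higher in rMC-1 (0.72 ± 0.10, edgeR adjusted p = 4.89e-05), and Socs1 (-0.38 ± 0.36) and Pias1 (0.21 ± 0.12) were not called.

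**Figure D3:**
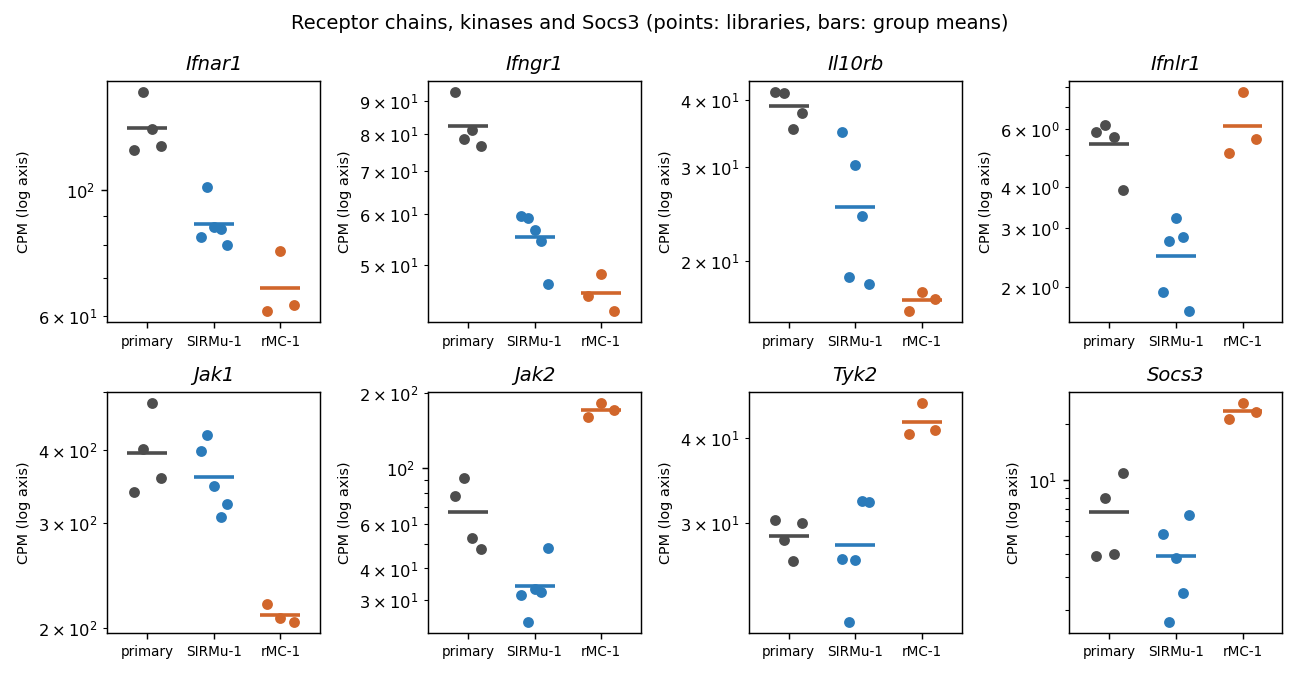
CPM on log axes for receptor chains (Ifnar1, Ifngr1, Il10rb, Ifnlr1), kinases (Jak1, Jak2, Tyk2) and Socs3 in the 3 groups; points are libraries and bars are group means. Ifnar1 in both lines lies below the primary points (its step between the lines is absent with library totals), and Jak2 is lowest in SIRMu-1 and highest in rMC-1.

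The RNA binders and antiviral effectors held the widest differences between the lines. Of the 12 tested, 9 were called lower in SIRMu-1 and 7 higher in rMC-1, each against primary cultures. Of all tested genes, 24.4% and 31.9% were. Between the lines 10 of the 12 were called higher in rMC-1, beside 30.5% of all tested genes. Ifit1, Oasl and Rtp4 passed the filter through rMC-1 alone. Bst2, Rsad2, Cmpk2, Ifit3 and Mx2 had no SIRMu-1 library above the filter's cutoff, so the filter and the choice of the set partly fix these counts. Bst2 encodes tetherin, which holds budding virus particles at the cell surface. It was at 0.434, 0.150, 0.447 and 0.353 CPM in primary cultures, and in SIRMu-1 it had 5 counts in all, in replicates 4 and 5. In rMC-1 it was at 63.7, 61.7 and 62.7 CPM (62.7 ± 0.978, SD, n = 3). No groups overlapped, and the spread within rMC-1 was small beside the distance to the others, with a fitted log2 change of 10.63 ± 0.51 against SIRMu-1 (edgeR adjusted p = 3.94e-08) and of -3.13 ± 0.63 in SIRMu-1 against primary cultures (edgeR adjusted p = 0.00196). Without SIRMu-1 replicate 4 these were 11.46 and -3.96.

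Oasl, an RNA sensor related to the oligoadenylate synthetases, was at 0.118, 0.112, 0.134 and 0.132 CPM in primary cultures (12 counts), at 0 in every SIRMu-1 library and at 6.32, 4.18 and 4.19 CPM in rMC-1. It was called in all 3 comparisons, and with 3 counts in a group as the floor it was at least 5.81-fold lower in SIRMu-1 than in primary cultures and at least 226-fold higher in rMC-1 than in SIRMu-1. Rsad2 encodes viperin, an enzyme that blocks viral RNA synthesis. Its primary values were 0.0789, 0.412, 0.313 and 0.617 CPM (34 counts), its SIRMu-1 libraries had no count, and its rMC-1 values were 1.68, 2.00 and 1.45 CPM. By the same floor it was at least 16.5-fold lower in SIRMu-1 than in primary cultures and at least 81.7-fold higher in rMC-1 than in SIRMu-1. In rMC-1 against primary cultures it rose by 2.26 ± 0.58 on the log2 scale (edgeR adjusted p = 0.00891). Cmpk2, a mitochondrial nucleotide kinase gene next to Rsad2 in the RefSeq gene order, rose in rMC-1 as well (2.03 ± 0.37, edgeR adjusted p = 0.000438). Its values were 0.631, 0.823, 0.492 and 0.308 CPM in primary cultures, 0.189 to 0.362 CPM in SIRMu-1 (median 0.225) and 2.39, 2.70 and 1.90 CPM in rMC-1. The lower call in SIRMu-1 (-1.09 ± 0.35, edgeR adjusted p = 0.0238) was lost when primary replicate 1 (-1.04, edgeR adjusted p = 0.0522), primary replicate 2 (-0.86, edgeR adjusted p = 0.0766) or SIRMu-1 replicate 1 (-1.03, edgeR adjusted p = 0.0533) was left out, and also without both passage 4 primaries (-0.60), with code-sharing libraries summed (-0.94) and with drug-matched SIRMu-1 libraries (-1.02).

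The 3 Ifit genes, whose proteins bind viral RNA, lie side by side on rat chromosome 1 with 1 other gene between Ifit3 and Ifit1, and they did not share 1 pattern. Ifit2 was at 35.7, 64.0, 19.0 and 7.36 CPM in primary cultures, at 0.960, 0.535, 0.991, 0.757 and 1.69 CPM in SIRMu-1 and at 32.1, 36.2 and 41.4 CPM in rMC-1. SIRMu-1 lay wholly below the others (-5.00 ± 0.56 against primary cultures, edgeR adjusted p = 5.28e-05), while rMC-1 lay inside the primary range (0.21 ± 0.54, edgeR adjusted p = 0.735). Without primary replicate 2 the SIRMu-1 value was -4.40 and without both passage 4 primaries -3.74, and in the latter case Ifit2 was called higher in rMC-1 (1.47, edgeR adjusted p = 0.0168).

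Ifit3 was at 0.434, 0.299, 0.984 and 0.881 CPM in primary cultures, had 9 counts in SIRMu-1, in replicates 3 to 5, and was at 1.25, 1.30 and 1.00 CPM in rMC-1. Every rMC-1 library was above every primary one, yet the difference was not called (0.87 ± 0.66, edgeR adjusted p = 0.251), and SIRMu-1 was lower by a fitted log2 change of -3.23 ± 0.71 (edgeR adjusted p = 0.00322). With only the SIRMu-1 libraries grown with the drugs of the primary cultures, the latter was -2.41 and not called (edgeR adjusted p = 0.0584). Ifit1 was at 0.0789 and 0.374 CPM in primary replicates 1 and 2 (12 counts), at 0 in replicates 3 and 4 and in all of SIRMu-1, and at 4.79, 2.86 and 2.69 CPM in rMC-1. It was therefore high in rMC-1 alone, by a fitted log2 change of 4.81 ± 1.01 against primary cultures (edgeR adjusted p = 0.00316), which was 6.74 without primary replicate 2. Against SIRMu-1 it was at least 158-fold higher. The lower call in SIRMu-1 (at least 5.81-fold, edgeR adjusted p = 0.0418) was lost when any 1 library other than primary replicates 3 and 4 was left out (edgeR adjusted p 0.0567 to 0.13), with code-sharing libraries summed (0.123) and with drug-matched SIRMu-1 libraries (0.162), and without both passage 4 primaries no count was left in either group. Reads that fit several places were set aside in the files, so counts of similar copies such as the Ifit, Oas, Mx and Gbp genes are uncertain.

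Mx2, a dynamin-like GTPase gene against viruses, was at 1.38, 0.636, 0.358 and 7.98 CPM in primary cultures, where replicate 4 stood far above the rest. It had 8 counts in SIRMu-1 and was at 2.96, 1.71 and 1.55 CPM in rMC-1. SIRMu-1 was lower by a fitted log2 change of -5.39 ± 1.09 (edgeR adjusted p = 0.00201), which was -3.70 when primary replicate 4 was left out and -6.37 when SIRMu-1 replicate 1 was. In rMC-1 the sign of the uncalled difference turned with primary replicate 4, from -0.32 to 1.38 without it. Its neighbour Mx1 had 5 counts in primary cultures and 0 in both lines, and Oas1a, an oligoadenylate synthetase gene, had 9, 0 and 9 counts in primary, SIRMu-1 and rMC-1 libraries, and neither was tested. Rtp4, a receptor chaperone gene and interferon target, was at 0.355, 0.187, 0.134 and 0.264 CPM in primary cultures, at 0.0329 to 0.0944 CPM in SIRMu-1 (median 0.0375) and at 3.05, 2.58 and 1.74 CPM in rMC-1. No 2 of its groups overlapped, and both differences from primary cultures were called (-1.98 ± 0.46 and 3.36 ± 0.43). The lower call of Rtp4 in SIRMu-1 was lost with code-sharing libraries summed (-1.99, edgeR adjusted p = 0.0572).

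The other effectors moved little, or in rMC-1 alone. Eif2ak2 encodes PKR, the kinase that stops translation on double-stranded RNA. It was at 57.2, 65.7, 60.01 and 77.4 CPM in primary cultures, at 69.2 to 81.2 CPM in SIRMu-1 (median 77.4) and at 62.8, 75.3 and 65.1 CPM in rMC-1. All 3 groups overlapped, and the log2 fold changes of 0.22 ± 0.10 and 0.06 ± 0.12 against primary cultures were not called. The first became a call without primary replicate 4 (0.31, edgeR adjusted p = 0.0253), and the second with library totals in place of TMM (0.52, edgeR adjusted p = 0.00789). Isg20, an exonuclease gene, was at 5.40, 4.23, 7.38 and 11.5 CPM, at 6.92 to 9.03 CPM (median 8.09) and at 7.21, 5.34 and 6.27 CPM in the same order, with no call. Adar, the RNA editing enzyme that marks the cell's own double-stranded RNA, was not called in SIRMu-1 (-0.23 ± 0.11), save without primary replicate 1 (-0.32, edgeR adjusted p = 0.0249), but rose in rMC-1, where it was at 84.6, 101 and 94.1 CPM against 39.7, 51.6, 54.0 and 49.9 CPM in primary cultures (0.93 ± 0.12, edgeR adjusted p = 3.64e-05).

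**Figure D4:**
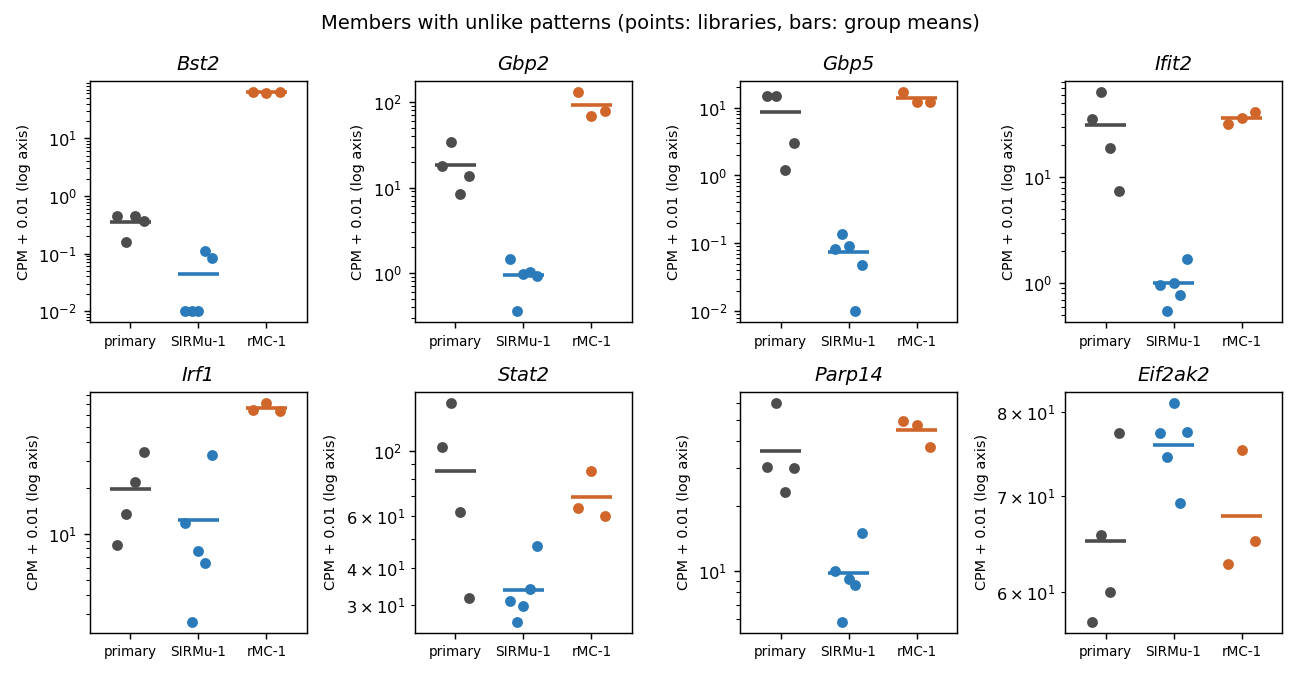
CPM + 0.01 on log axes for 8 members with unlike patterns; points are libraries and bars are group means. Bst2 sits at 61.7 to 63.7 CPM in rMC-1 and at or under 0.0987 CPM in SIRMu-1, the rMC-1 points of Ifit2 and Gbp5 lie at the level of the upper primary points, and the 3 groups of Eif2ak2 overlap between 57.2 and 81.2 CPM.

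Guanylate-binding proteins are large GTPases that attack pathogen vacuoles, and both Gbp genes of the set were lower in SIRMu-1. Gbp2 was at 17.8, 34.1, 8.41 and 13.7 CPM in primary cultures, at 1.46, 0.346, 0.949, 1.02 and 0.899 CPM in SIRMu-1 and at 132, 68.9 and 79.6 CPM in rMC-1. The groups did not overlap, with log2 fold changes of -4.31 ± 0.46 in SIRMu-1 (edgeR adjusted p = 3.58e-05) and 2.34 ± 0.45 in rMC-1 (edgeR adjusted p = 0.000625). Without both passage 4 primaries these were -3.57 and 3.08. Gbp5, which also supports inflammasome activity, was at 15.0, 14.9, 1.21 and 3.00 CPM in primary cultures, had 9 counts in SIRMu-1 and was at 17.0, 12.2 and 12.2 CPM in rMC-1. The rMC-1 values lay near the passage 4 primaries and above the passage 3 ones, so the comparison over all 4 was not called (0.69 ± 0.69) and that with passage 3 alone was (2.71, edgeR adjusted p = 0.00238). SIRMu-1 was lower by -6.98 ± 0.86 over all 4 (edgeR adjusted p = 9.69e-05) and by -4.96 against passage 3 alone.

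ISG15 is a ubiquitin-like protein that is joined to other proteins after interferon, and USP18 removes it. Isg15 was at 0.789, 0.299, 0.716 and 2.12 CPM in primary cultures, at 0.0826 to 0.165 CPM in SIRMu-1 (median 0.112) and at 9.74, 7.83 and 6.50 CPM in rMC-1. No groups overlapped, and the log2 fold changes were -2.91 ± 0.51 in SIRMu-1 (edgeR adjusted p = 0.00078) and 3.03 ± 0.50 in rMC-1 (edgeR adjusted p = 0.000214). Without primary replicate 4 they were -2.21 and 3.73, both called. In SIRMu-1 Usp18 had the same direction as Isg15 but was not called (-1.43 ± 0.61), and in rMC-1 it did not rise (-0.51 ± 0.67). Usp18 was at 1.18, 1.01, 0.760 and 0.837 CPM in primary cultures, at 0.534, 0.0944, 0.495, 0.593 and 0.0375 CPM in SIRMu-1 and at 0.370, 0.907 and 0.711 CPM in rMC-1, and no comparison was called (edgeR adjusted p 0.0733, 0.511 and 0.233). All SIRMu-1 values lay below the primary ones, and SIRMu-1 replicates 2 and 5 lay far below the other 3.

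The ubiquitin ligase genes split. Dtx3l, whose protein works with PARP9, was at 6.03, 9.28, 4.79 and 6.39 CPM in primary cultures, at 1.45 to 2.85 CPM in SIRMu-1 (median 1.98) and at 12.2, 13.5 and 11.1 CPM in rMC-1, so that no groups overlapped (-1.70 ± 0.23 and 0.89 ± 0.26 against primary cultures, edgeR adjusted p = 0.000175 and 0.00882). Trim25, which activates the RNA sensor RIG-I, was higher in rMC-1 (57.7, 68.3 and 68.2 CPM) than in primary cultures (25.0, 33.8, 34.3 and 30.3 CPM), by 1.07 ± 0.17 (edgeR adjusted p = 0.000131), and not called in SIRMu-1 (-0.20 ± 0.15). Trim21, an intracellular antibody receptor gene, was at 4.46, 6.66, 2.95 and 4.98 CPM in primary cultures, at 4.00 to 6.37 CPM in SIRMu-1 (median 4.77) and at 5.24, 6.92 and 4.87 CPM in rMC-1. Its 3 groups overlapped and no comparison was called, save rMC-1 against primary cultures with library totals (0.72, edgeR adjusted p = 0.0496).

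Parp9 and Parp14, ADP-ribosyltransferase genes that flank Dtx3l in the RefSeq gene order, were lower in SIRMu-1 without being called in rMC-1. Parp9 was at 23.9, 38.1, 22.4 and 17.7 CPM in primary cultures, at 7.55 to 13.3 CPM in SIRMu-1 (median 8.88) and at 33.7, 38.4 and 28.9 CPM in rMC-1. Parp14 was at 30.4, 60.4, 23.3 and 30.1 CPM, at 5.82 to 15.1 CPM (median 9.25) and at 49.9, 47.8 and 37.8 CPM. In both genes SIRMu-1 lay wholly below the other groups, which overlapped each other. The log2 fold changes in SIRMu-1 were -1.42 ± 0.23 (edgeR adjusted p = 0.000427) and -1.89 ± 0.30 (edgeR adjusted p = 0.000447), and in rMC-1 0.40 ± 0.25 and 0.32 ± 0.34. Without primary replicate 2, the highest primary library for both, they were called higher in rMC-1 (0.65 and 0.69, edgeR adjusted p = 0.0179 and 0.0467). Neighbouring genes can share reads, and how the counting used the strand is not stated.

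Of the remaining members, Ifi27, a mitochondrial membrane protein gene, was at 163, 140, 137 and 120 CPM in primary cultures, at 75.5 to 99.5 CPM in SIRMu-1 (median 87.4) and at 107, 121 and 121 CPM in rMC-1. It fell in SIRMu-1 by 0.66 ± 0.11 on the log2 scale (edgeR adjusted p = 0.000566) and the libraries of each group lay close together. In rMC-1 it was not called (-0.27 ± 0.12, edgeR adjusted p = 0.0741), and without primary replicate 4 it was called lower (-0.34, edgeR adjusted p = 0.031). Ifi35, a cytoplasmic target gene of both interferon types, was at 18.0, 17.2 and 15.3 CPM in rMC-1 against 5.28 to 7.75 CPM in primary cultures (1.41 ± 0.21, edgeR adjusted p = 0.000105), and SIRMu-1 overlapped the primary range (0.06 ± 0.19). Ifi44 was at 4.52 to 9.21 CPM in primary cultures, at 2.90 to 6.41 CPM in SIRMu-1 and at 8.72, 10.8 and 7.30 CPM in rMC-1. It was called between the lines (0.95 ± 0.29, edgeR adjusted p = 0.0124) and not against primary cultures, and with code-sharing libraries summed the call of Ifi44 was lost (0.98, edgeR adjusted p = 0.0607). Without primary replicate 3 or without SIRMu-1 replicate 5 it was called lower in SIRMu-1 (-0.73 and -0.75, edgeR adjusted p = 0.0447 and 0.046).

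Side by side, the 29 tested members fell into 5 combinations of calls against primary cultures. Lower in SIRMu-1 and higher in rMC-1 were 9 members, Ifit1, Oasl, Rsad2, Cmpk2, Bst2, Rtp4, Gbp2, Isg15 and Dtx3l, where 2.43% of all tested genes (275) were. The set was chosen for this pattern, so its share among the members is no separate evidence. Ifit1, Oasl and Rtp4 also passed the filter through their rMC-1 libraries alone. Another 9 were lower in SIRMu-1 and not called in rMC-1, namely Stat2, Irf9, Ifit2, Ifit3, Mx2, Gbp5, Parp9, Parp14 and Ifi27. Irf1, Adar, Trim25 and Ifi35 were higher in rMC-1 and not called in SIRMu-1. Irf7 was lower in both, and Sp100, Eif2ak2, Isg20, Usp18, Trim21 and Ifi44 were called in neither. A member called in 1 line and not in the other is not thereby shown to differ between them. The direct comparison called 23 members, all but Irf7, Sp100, Eif2ak2, Isg20, Usp18 and Trim21.

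**Figure D5:**
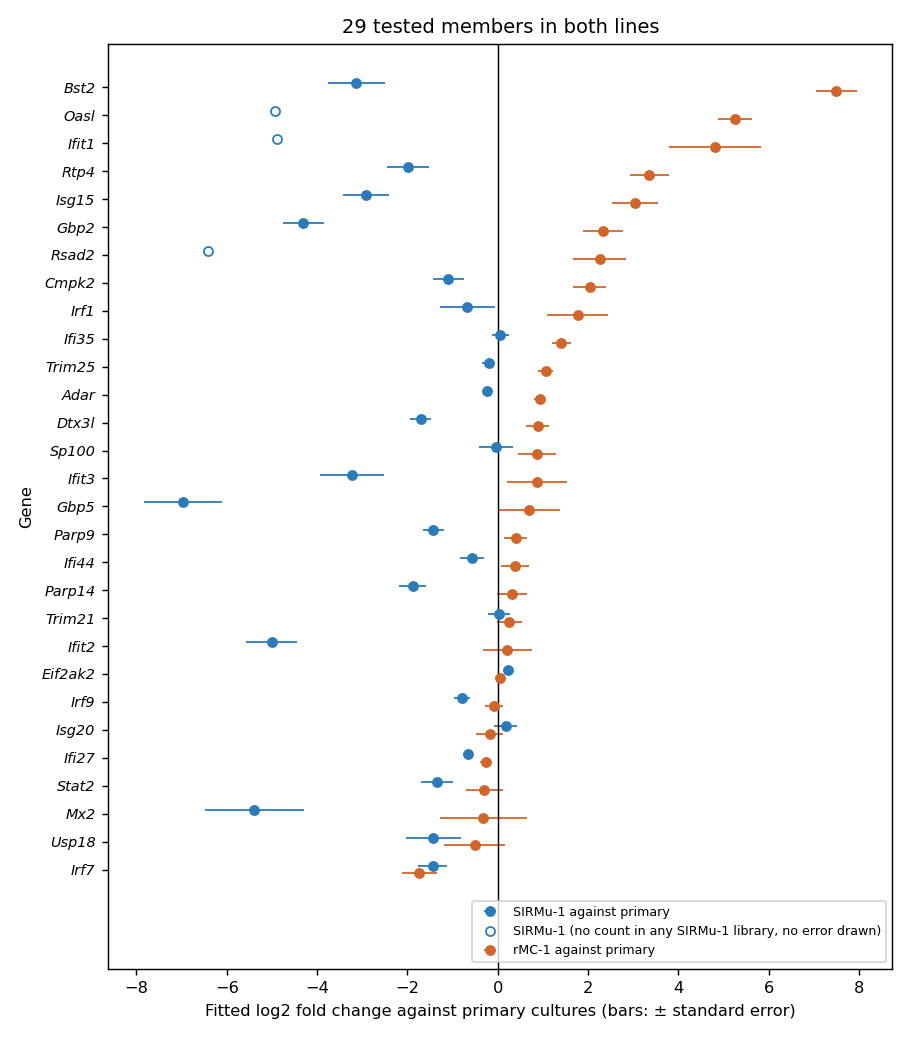
Fitted log2 fold change against primary cultures, ± SE, for the 29 tested members in SIRMu-1 (blue) and rMC-1 (orange), ordered by the rMC-1 value; open circles mark members with no count in SIRMu-1, whose fitted value depends on the prior count and is no bound. Bst2, Oasl and Ifit1 have the highest rMC-1 values, and both values of Irf7 are below 0 (-1.44 and -1.73).

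The primary libraries differed among themselves in these genes. For 13 of the 29 tested members (44.8%) both passage 4 libraries lay above both passage 3 libraries, which was so for 17.4% of all tested genes, and for 4 (13.8%) they lay below, against 17.5%. The 13 were Stat2, Irf7, Irf9, Sp100, Ifit1, Ifit2, Cmpk2, Gbp2, Gbp5, Usp18, Parp9, Parp14 and Ifi27, and the 4 were Irf1, Ifit3, Oasl and Isg20. The ratio of the passage 4 to the passage 3 mean was 7.11 for Gbp5, 3.79 for Ifit2 and 3.48 for Sp100, and 0.388 for Irf1. The passage 4 libraries also share a file-name code, which the passage 3 libraries do not, so passage and what the code stands for cannot be told apart for that pair. With 2 libraries a side no test was run.

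Markers of microglia and macrophages also differed among the primary libraries. The sum over 11 such markers was 15.3, 5.05, 2.28 and 4.76 CPM in primary replicates 1 to 4, with 1, 0, 8 and 7 markers at 0. In SIRMu-1 it was 0.262 to 3.97 CPM and in rMC-1 0.206 to 0.769 CPM, with 6 to 9 markers at 0 in each library of the lines, and Aif1, C1qa, C1qb and C1qc at 0 in every one of them. The listed marker Tmem119 was left out of the sum because it was at 215 to 419 CPM in primary cultures and at 168 to 217 CPM in SIRMu-1, where the other markers were at or under 0.126 CPM apart from Csf1r. Csf1r was at 3.75 CPM in SIRMu-1 replicate 2, inside the primary range of 2.13 to 4.10 CPM, and at 0.112 to 0.747 CPM in the other SIRMu-1 libraries. In rMC-1 each of these markers was at or under 0.456 CPM. Of 9 fibroblast and matrix genes, 4 were called lower in SIRMu-1 against primary cultures (Col3a1, Lum, Dcn and Thy1, log2 fold changes -1.52, -5.62, -7.23 and -14.09) and 0 higher, and all 9 were called lower in rMC-1. Thy1, a surface glycoprotein gene, was at 133 to 1078 CPM in primary cultures and had 4 counts in SIRMu-1, while the collagen gene Col1a1 was at 31720 to 43150 CPM in SIRMu-1 and not called (-0.62). The other 5 genes were not called in SIRMu-1, and the fitted values of Col1a2 (0.14) and Pdgfra (0.10) were slightly above 0. The sum over 7 endothelium markers was 3.97 to 13.6 CPM in primary cultures, 27.2 to 47.3 CPM in SIRMu-1 and 1.61 to 2.48 CPM in rMC-1. Tek, an endothelial receptor kinase gene, was called higher in SIRMu-1 (24.5 to 44.6 CPM against 0.711 to 2.48 CPM), Kdr, another, had 1 count there against 356 in primary cultures, and Cdh5 had 0, 3 and 0 counts in primary, SIRMu-1 and rMC-1 libraries. The part of these other cell types in the results was not tested.

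Within SIRMu-1, replicate 5 (passage 20) had the highest value of the 5 for 11 of 29 members (37.9%, against 30.2% of all tested genes), and replicate 2 the lowest for 14 (48.3%, against 27.3%). Irf1 shows both, with 32.9 CPM in replicate 5 and 2.64 CPM in replicate 2. Gentamicin and amphotericin B were in replicates 3 and 5. Between SIRMu-1 with and without these drugs, 0 of 29 members were called (0 of all tested genes, 0%), 0 had an unadjusted p under 0.05 where 3.82% of all tested genes had, and the lowest edgeR adjusted p of a member was 0.977. DESeq2 also called 0 members. The median log2 fold change of the members was 0.12 with the drugs. Against the SIRMu-1 libraries with drugs alone, which match the primary cultures in this respect, 14 members were lower in SIRMu-1 in place of 19. That comparison keeps only SIRMu-1 replicates 3 and 5, of passages 11 and 20. Drugs, passage and the smaller number of libraries cannot be told apart in it.

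A wider list of 48 interferon-stimulated genes outside the set, of which 42 were in the files and 33 tested, gave a more mixed picture. In SIRMu-1, 14 were called lower and 2 higher than in primary cultures (median log2 fold change -0.51), or 42.4% and 6.06%, beside 24.4% and 21.7% of all tested genes. In rMC-1, 12 were called higher and 13 lower (median 0.19), or 36.4% and 39.4%, close to the 31.9% and 38.9% of all tested genes, and with library totals 15 were called higher and 4 lower. Between the lines, 20 were called higher in rMC-1 and 5 lower (median 0.67), or 60.6% and 15.2%, beside 30.5% and 32.7% of all tested genes.

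Irgm, an immunity-related GTPase gene, was at 10.3, 16.1, 9.57 and 8.77 CPM in primary cultures, had no count in SIRMu-1 and was at 6.01, 5.93 and 7.14 CPM in rMC-1. It was at least 535-fold lower in SIRMu-1 than in primary cultures, and slightly lower in rMC-1 (-0.81 ± 0.28, edgeR adjusted p = 0.0288), a call lost with library totals (-0.34). Cxcl10, a chemokine of interferon gamma responses, was at 24.7, 22.1 and 23.0 CPM in rMC-1 against at most 1.45 CPM in any primary and 0.284 CPM in any SIRMu-1 library (5.55 ± 0.86 against primary cultures, edgeR adjusted p = 0.000132). Others went against the group in rMC-1. Plscr1, a phospholipid scramblase gene, had no count there and was at 4.08 to 6.88 CPM in primary cultures, at least 226-fold lower. In SIRMu-1 Plscr1 was called higher than in primary cultures (0.72 ± 0.21, edgeR adjusted p = 0.0207), against the group there too. Slfn2 was also called higher in SIRMu-1 (1.46 ± 0.457, edgeR adjusted p = 0.021), and in rMC-1 it went with the group (3.24 ± 0.515, edgeR adjusted p = 0.000153). Ifitm1, a membrane protein gene that blocks virus entry, was at 0.165 to 0.256 CPM in rMC-1 and at 0.939 to 37.7 CPM in primary cultures (-6.72 ± 1.22, edgeR adjusted p = 0.000414).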

How the data were processed

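Polyadenylated RNA of 12 cultures was sequenced with a stranded kit, per the labels' protocols. The submitters' processing notes name STAR 2.5.3a, cutadapt 1.8.1, edgeR 3.18.1 and build rn6. What each tool did, the gene annotation and the handling of strand are not stated. The authors deposited whole-number read counts per gene, 1 table per library, with no normalization. Rows that name no gene (37% to 44.2% of a library's reads) entered neither library sizes nor tests. A deposited table of log2 CPM was not used here.

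Groups came from the labels. In R 4.3.3, edgeR 4.0.16 filtered genes on the 3 groups, scaled libraries by TMM and fitted 1 quasi-likelihood model to all 12 libraries (9 residual degrees of freedom), with Benjamini-Hochberg adjustment over 11321 genes and calls at an adjusted p under 0.05. SE is the absolute log2 fold change divided by the square root of F. The script was tested on simulated data. A fold against a group with no count is a lower bound with 3 counts for the whole group. Other scalings, filters, DESeq2 1.42.0, a replicate block, summed libraries, matched drugs and left-out libraries were tried. Full values are given for members whose groups do not overlap, that are among the 8 largest called changes of a comparison or that were not called; of other interferon-stimulated genes, up to 6 called per comparison with a mean log2 CPM of at least 1 may be named. The members and lists were chosen with earlier results of these data known. Gene names and order and promoter sequences came from RefSeq on GRCr8, which matched 35 of the 36 members by symbol. The spread between the samples of a group may be technical in part.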

Additional observations from a re-analysis of the deposited data

Results flagged for a closer look

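In 55 groups of 4 or 5 libraries, 1 for each tested member and each of primary cultures and SIRMu-1 where the values vary, 1 library stood far from the rest of its group by Dixon's criterion; chance alone gives about 1 in 20. Trim25 was at 18.8 CPM in SIRMu-1 replicate 2, where the other SIRMu-1 libraries were at 26.9 to 30.9 CPM. On the log2 scale the gap to the nearest of them was 0.717 of the group's range, against a critical value of 0.71. The same library had the lowest value of its group for 14 of the 29 tested members.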

How the results depend on the processing

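Directions of the members' medians held in every alternative run. With library totals in place of TMM the median log2 fold change was 1.34 in rMC-1 against primary cultures and 2.64 against SIRMu-1. With only the 2 groups compared in the fit, 20 members passed the filter in SIRMu-1 against primary cultures, 10 were lower and the median was -0.75; fewer genes were tested by construction. Without both passage 4 primaries, an alternative chosen after seeing the data, SIRMu-1 had 1 member higher (Sp100, 1.14), 14 lower and a median of -1.08, and rMC-1 had 16 higher and 2 lower (Irf7 and Isg20).

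With 1 library left out at a time, SIRMu-1 against primary cultures gave 17 to 20 members lower and 0 to 1 higher, with medians of -1.57 to -1.17. In the same way rMC-1 against primary cultures gave 12 to 15 higher and 1 to 2 lower (medians 0.64 to 0.96), and rMC-1 against SIRMu-1 22 to 24 higher (medians 2.07 to 2.51). Summing libraries that share a file-name code gave 13 lower in SIRMu-1, 13 higher in rMC-1 and 21 between the lines; over all genes the calls in SIRMu-1 against primary cultures were 1466 higher and 1707 lower in place of 2454 and 2766. Library totals gave 5227 genes higher and 2324 lower between the lines, in place of 3455 and 3702. DESeq2 gave 19 lower in SIRMu-1, 13 higher in rMC-1 and 24 between the lines, and for the drugs 3 genes higher and 1 lower in place of 0 and 0, none of them a member. Same-numbered libraries did not deviate together (1 of 10 pairs above 0.1, range -0.0551 to 0.109), so the numbers are not taken as pairs; with the replicate block 17 members were lower in SIRMu-1, 13 higher and 2 lower in rMC-1, Irf7 and Ifi27, and 22 were higher between the lines. Members with under 40 counts in a group, such as Ifit1, Oasl and Rsad2, are limited by depth.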
